A study of Mus musculus with 29 samples.

Results

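Methylation of the 6 surfactant genes of the alveolar type II cell, Sftpc, Sftpb, Sftpa1, Sftpd, Abca3 and Lamp3, was followed in whole-lung DNA of adult mice with and without allergic airways disease (AAD). The members were all windows that the deposited gene table assigned to these 6 genes. They numbered 31 of 260686 windows, of which 259167 were tested. Abca3 had 16 windows, Lamp3 6, Sftpb 3, Sftpd 3, Sftpc 2 and Sftpa1 1, and all 31 had a value in each of the 29 libraries, so none was lost to a filter.

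The animals were described as 13-week-old female Balb/c offspring, although the Y-chromosome values of 1 Sham library, given below, differ from those of all others. Dams received intranasal saline (Sham) or fine airborne particulate matter (PM) from before mating until weaning, and the offspring themselves were never given particles. Offspring with the suffix OVA were sensitised to ovalbumin with alum and then breathed aerosolised ovalbumin, which induces AAD. Their controls were mock-challenged without allergen. There were 8 PM-OVA libraries and 7 in each of the Sham, Sham-OVA and PM groups. Lungs were taken after methacholine lung function testing. Which offspring shared a dam is not given, so the p-values measure the spread between animals only.

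The alveolar type II cell makes, stores and secretes pulmonary surfactant, the lipid and protein film that lowers surface tension in the alveolus. Surfactant lipid is pumped by ABCA3 into lamellar bodies, the storage granules of these cells, where it is packed with the small hydrophobic proteins SP-B (Sftpb) and SP-C (Sftpc). SP-A (Sftpa1) and SP-D (Sftpd) are collectins, soluble lectins that bind microbes and modulate alveolar macrophages, and LAMP3 is a membrane glycoprotein of the lamellar body that mature dendritic cells also make. In whole lung, where these cells are a minority, a methylation level averages over all cell types, so a smaller share of alveolar type II cells and a change of methylation within them cannot be told apart.

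The 6 genes start in sequence of very different CpG content. The RefSeq promoter table (GRCm38.p6) matched 4 of the 6 members, Abca3, Sftpb, Sftpa1 and Lamp3. Entries for Sftpc and Sftpd were not used here. In the 250 bases before the RefSeq start, Abca3 had 21 CpG dinucleotides (the letters CG), more than 83.7% of the 32851 promoters in the table. Sftpb had 7, Sftpa1 3 and Lamp3 0, against a median of 6 over all promoters, and 7.9% of promoters had none. Upstream bases are shown for 3 of them, because they span the range of methylation levels at the start of these genes. They end before the earlier of the RefSeq and GENCODE starts and read 5′ to 3′ on the strand of the gene, with each CpG in capitals.
Abca3 (chr17:24351773-24351949, plus strand): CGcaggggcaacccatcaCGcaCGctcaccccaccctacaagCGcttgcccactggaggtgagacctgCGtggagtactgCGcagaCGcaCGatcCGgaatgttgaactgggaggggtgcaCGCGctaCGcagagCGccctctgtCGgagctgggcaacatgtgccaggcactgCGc
Sftpb (chr6:72304360-72304609, plus strand): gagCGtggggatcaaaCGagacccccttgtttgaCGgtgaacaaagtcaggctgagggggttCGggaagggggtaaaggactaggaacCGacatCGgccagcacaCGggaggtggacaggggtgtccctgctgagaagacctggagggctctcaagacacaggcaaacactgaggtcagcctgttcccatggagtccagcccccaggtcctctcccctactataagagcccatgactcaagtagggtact
Lamp3 (chr16:19706376-19706615, minus strand): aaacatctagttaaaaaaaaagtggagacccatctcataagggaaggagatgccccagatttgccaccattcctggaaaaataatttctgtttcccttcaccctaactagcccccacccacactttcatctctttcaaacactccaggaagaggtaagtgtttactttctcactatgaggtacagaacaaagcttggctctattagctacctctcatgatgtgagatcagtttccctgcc
The 177 bases of Abca3 held 15 CpGs, the 250 of Sftpb held 7 and the 240 of Lamp3 held 0. Of the Abca3 bases 82 lay in its start window, and all of those of Sftpb and Lamp3 lay in theirs. The letters CAAG on either strand, the core of sites of the lung transcription factor NKX2-1, were present 6 times in the 250 bases of Sftpa1, 3 times in Sftpb, 2 times in Abca3 and 1 time in Lamp3. At least 1 such match was found in 86.6% of all promoters, with a median of 2.

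A %DNAm value is a percentage of methylation that the study calculated at each base and then binned over a window with a fixed number of CpGs. The windows of these genes held 49 to 52 CpG dinucleotides of the reference, and therefore ran from 523 bp at the CpG-dense start of Abca3 (95.6 CpGs per kb) to 17615 bp within Lamp3 (2.84 CpGs per kb). Windows are numbered from the gene start in the direction of transcription, and window 1 of each gene, called its start window, contains the annotated start. The windows covered 98.1% to 100% of the length of each gene. The read depth behind each window is unknown, so no counting interval is given.

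Values on the Y chromosome set Sham replicate 1 apart: 1224 of its 1230 Y windows had one, whereas the other 28 libraries had 29 to 46, and the series describes all offspring as female. Among the 7 Sham libraries it had the lowest start-window level for Sftpc, Sftpb, Sftpd and Lamp3. Differences and counts of calls from the fit of all 4 groups, for OVA in Sham and for PM against Sham, are therefore given with and without it. Levels, intervals, non-overlap of groups, within-group correlations and the fits with centring or with only the groups compared include it. Mean %DNAm over all windows was 67.8% to 70.2% per library.

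In Sham lungs the start windows ranged from unmethylated to largely methylated. Abca3 (chr17:24351868-24352390, GRCm38, 302 of 523 bp exonic) was at 0.510% ± 1.04 (SD, n = 7). Sftpb (chr6:72303015-72306850) was at 55.5% ± 2.84, Sftpc (chr14:70522536-70526327) at 72.1% ± 2.79 and Sftpa1 (chr14:41131499-41138883) at 73.5% ± 1.65. Sftpd (chr14:41184096-41191480) was at 79.6% ± 1.56 and Lamp3 (chr16:19703956-19711837) at 82.1% ± 1.95. This order held within all 29 libraries for each pair of neighbours except Sftpc and Sftpa1, which took it in 23 of 29 libraries and in 4 of 7 Sham libraries, so the levels of that pair did not differ beyond their spread in Sham. The start windows of Sftpc, Sftpd and Lamp3 each ran 2 kb or more upstream of the gene, and that of Sftpa1 held the whole gene.

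**Figure D1:**
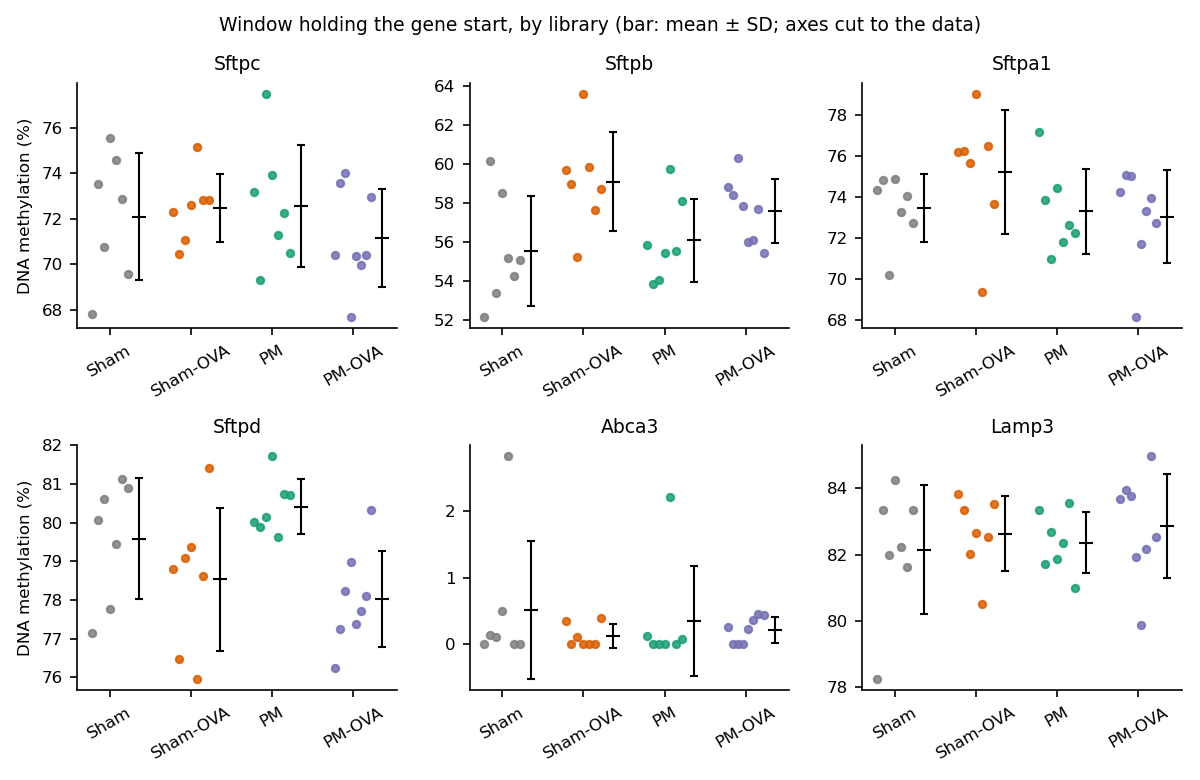
Percentage DNA methylation (vertical axes, cut to the data) of the start window of each surfactant gene in every library, by group, with mean ± SD beside the points. Abca3 reached at most 2.83% in any of the 29 libraries, while Sftpb lay between 52.2% and 63.6% and Lamp3 between 78.2% and 84.97%.

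OVA challenge was the comparison in which the surfactant genes differed. In Sham offspring 10 of the 31 windows had an adjusted p under 0.05 (limma on log-transformed percentages, Benjamini-Hochberg over all tested windows), and all 10 were higher after OVA, 8 of them in Abca3 and 2 in Sftpb. Over all windows 35.6% were called in this comparison, 13.3% higher and 22.3% lower, so the share of surfactant windows called (32.3%) was close to the background and their direction was the reverse of the commoner one. In PM offspring 10 of 31 windows were also called, 7 higher, all in Abca3, and 3 lower, in Abca3 and Sftpd, against 44.1% of all windows called, 9.26% higher and 34.8% lower. Over the 31 windows the Sham comparison had a median difference of 1.4996 points and the PM comparison 0.711 points, against -0.414 and -1.03 points over all windows. No surfactant window reached a difference of 10 points, the size set for a differentially methylated region (DMR), in either comparison, as against 0.775% and 0.584% of all windows.

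Without Sham replicate 1 the count in Sham offspring was 6 of 31, all higher and all in Abca3 (windows 4, 5, 7, 12, 13 and 14), with 32.9% of all windows called, and the median difference was 1.13 points. Without PM-OVA replicate 7 the count in PM offspring was 6 of 31, 3 higher and 3 lower, with 43.3% of all windows called, 8.32% higher and 34.9% lower. Fitted on only the groups compared, 7 were called in Sham (6 higher, 1 lower) and 12 in PM (8 higher, 4 lower), against 31.3% and 44.2% of all windows. When each library was centred on its own median deviation, which took the median difference of all windows from -0.414 to -0.0207 points in Sham and from -1.03 to -0.0534 in PM, the split was 12 higher and 0 lower in Sham and 14 higher and 1 lower in PM. Over all windows it was then 18.5% higher and 18.4% lower in Sham and 21.8% higher and 20.4% lower in PM, so lower calls were no longer the commoner.

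**Figure D2:**
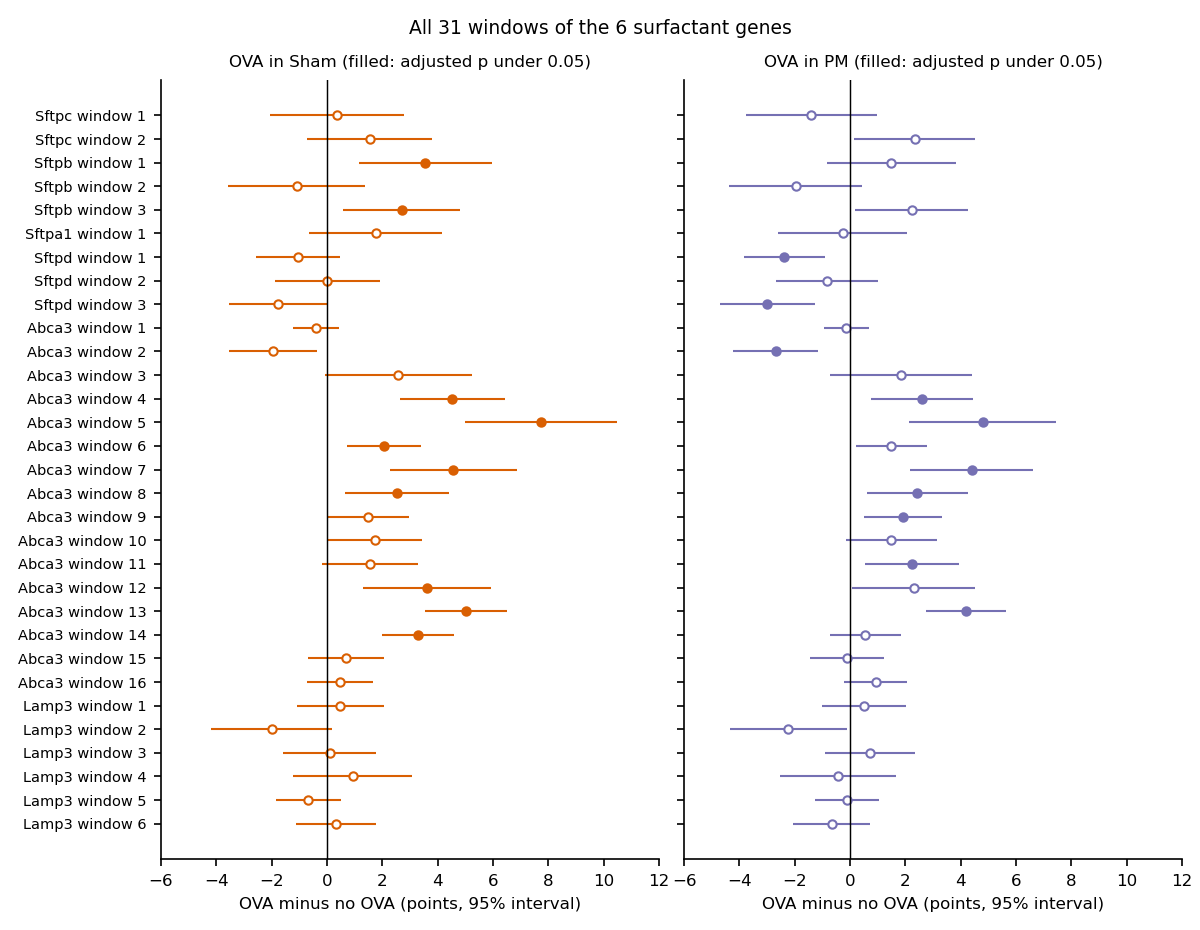
Difference in percentage DNA methylation between OVA and no OVA (horizontal axes, percentage points, with 95% intervals) for all 31 windows, in Sham offspring (left) and PM offspring (right), with filled points for an adjusted p under 0.05. Filled points right of 0 are all in Abca3 apart from Sftpb windows 1 and 3 in Sham, and filled points left of 0 appear only in PM, at Abca3 window 2 and Sftpd windows 1 and 3.

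Abca3, the lamellar body lipid transporter, held 16 of the 31 windows and carried 16 of the 20 calls, with 5 windows called in both comparisons. Along the gene, its level in Sham went from 0.510% at the start window to 20.6% ± 1.01 in window 2, 52.6% ± 1.89 in window 3 and 82.0% ± 1.10 in window 15 (SD, n = 7). Of its 16 windows 14 were higher after OVA in Sham and 13 in PM, with 8 and 7 called higher (6 in Sham without Sham replicate 1). Of all 259167 windows, 106102 were higher at any p in Sham and 79865 in PM, with 13.3% and 9.26% called higher. The windows called higher all lay within the gene, in a stretch whose window centres were 9212 to 50673.5 bp from the start.

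Window 5 (chr17:24363304-24366127, of which 417 bp are exonic and 361 bp coding) gave the largest difference of any surfactant window. Its lowest, median and highest levels were 65.5%, 68.2% and 71.2% in Sham, and 71.5%, 77.8% and 80.02% in Sham-OVA. In PM they were 67.1%, 71.1% and 72.1%, and in PM-OVA 71.7%, 75.1% and 80.6%. Every Sham-OVA library was above every Sham library, whereas the lowest PM-OVA library was just under the highest PM library. The difference was 7.72 points in Sham (95% interval 4.98 to 10.5, limma adjusted p = 9.8e-05, and 7.93 points without Sham replicate 1) and 4.80 points in PM (2.14 to 7.46, adjusted p = 0.00483).

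Window 13 (chr17:24397259-24400535, with 1105 bp exonic and 911 bp coding) had the smallest adjusted p in both comparisons. Its lowest, median and highest levels were 72.8%, 74.3% and 76.3% in Sham and 77.6%, 79.5% and 82.1% in Sham-OVA. In PM they were 73.3%, 74.4% and 78.0%, and in PM-OVA 77.8%, 79.5% and 80.8%. The Sham groups did not overlap, and the PM groups overlapped by a narrow margin. The difference was 5.03 points in Sham (95% interval 3.54 to 6.52, limma adjusted p = 1.13e-05, and 4.91 points without Sham replicate 1) and 4.20 points in PM (2.75 to 5.64, adjusted p = 5.03e-05). Windows 5 and 13 of Abca3 were the 2 of 31 surfactant windows whose groups did not overlap for OVA in Sham, against 8.58% of all windows, and no surfactant window had groups without overlap for OVA in PM, against 12% of all windows.

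Between and beside these 2 windows the differences were smaller. Windows 4, 7 and 8 were called higher in both comparisons, by 4.54 and 2.59 points for window 4, 4.57 and 4.39 points for window 7, and 2.52 and 2.42 points for window 8, in Sham and PM respectively. Windows 6, 12 and 14 were called in Sham (2.06, 3.62 and 3.29 points) and not in PM (1.482, 2.31 and 0.555 points), although with libraries centred all 3 were also called in PM (limma adjusted p = 0.00845, 0.0188 and 0.042). Windows 9 and 11 were called in PM (1.91 and 2.23 points) and not in Sham (1.4996 and 1.56 points), although with libraries centred window 9 was also called in Sham (1.895 points, limma adjusted p = 0.0457). Without Sham replicate 1 the Sham differences of windows 4, 7, 12 and 14 were 4.77, 3.99, 3.43 and 3.32 points, all still called, and those of windows 9 and 11 were 1.37 and 1.77 points. The interaction test called none of these windows, so no difference between Sham and PM offspring in the size of the OVA response was shown. Of these calls, those of windows 4, 5, 7, 12, 13 and 14 in Sham and of windows 2, 5, 7 and 13 in PM held whichever library was left out. Fitted on only the groups compared, windows 6 and 12 in Sham were not called (limma adjusted p = 0.0636 and 0.0596).

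For the other Abca3 calls the difference stayed above 0 and the adjusted p moved past 0.05, when single libraries were left out. The call of window 6 in Sham was lost without Sham replicates 1 or 3 or Sham-OVA replicates 2, 5 or 6 (limma adjusted p = 0.058 to 0.069, differences of 1.82 to 1.91 points). That of window 8 in Sham was lost without any of Sham replicates 1, 3, 5, 6 and 7 or Sham-OVA replicates 1, 3, 4 and 6 (adjusted p = 0.0529 to 0.0911, 2.10 to 2.53 points). In PM, window 4 was lost without PM replicates 4, 6 or 7 or PM-OVA replicate 7 (adjusted p = 0.0537 to 0.0831, 2.09 to 2.44 points), and window 8 without PM replicates 3 or 7 or PM-OVA replicates 5 or 7 (adjusted p = 0.0502 to 0.089, 1.76 to 2.28 points). Window 9 was lost without PM replicates 1, 2 or 4 or PM-OVA replicates 1, 2, 4 or 7 (adjusted p = 0.0543 to 0.0769, 1.70 to 1.89 points), and window 11 without PM replicates 2, 3 or 6 or PM-OVA replicates 2, 5, 7 or 8 (adjusted p = 0.0509 to 0.107, 1.69 to 2.25 points).

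The 2 comparisons share no library. Both called Abca3 windows 4, 5, 7, 8 and 13, all higher, which were 5 of the 10 surfactant calls (50%) on each side. Over all windows 76.7% of the calls in Sham were also called in the same direction in PM, and 61.9% of those in PM in Sham. Without Sham replicate 1 the calls in common were windows 4, 5, 7 and 13, which were 66.7% of the 6 in Sham and 40% of the 10 in PM, against 78.5% and 58.2% over all windows. Without PM-OVA replicate 7 they were windows 5, 7 and 13, which were 30% of the 10 in Sham and 50% of the 6 in PM, against 74.6% and 61.3%. Among all higher calls, with every library, the shares were 57% and 81.7%.

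The promoter-proximal end of Abca3 had no window called higher. The start window, which begins within the bases printed above, had lowest, median and highest levels of 0%, 0.1% and 2.83% in Sham and 0%, 0% and 0.393% in Sham-OVA. The levels were 0%, 0% and 2.23% in PM and 0%, 0.236% and 0.45% in PM-OVA. All groups overlapped at or near 0, and the difference was -0.390 points in Sham (95% interval -1.23 to 0.446) and -0.131 points in PM (-0.940 to 0.679). Both rested on 1 library each. Without Sham replicate 5, at 2.83%, the Sham difference was -0.00340 points, and without PM replicate 5, at 2.23%, the PM difference was 0.182 points. The Sham difference was -0.475 points without Sham replicate 1. Window 2, wholly intronic and centred 1630 bp from the start, lay at 18.7%, 20.7% and 21.7% (lowest, median, highest) in Sham and 16.02%, 19.0% and 19.8% in Sham-OVA. It lay at 18.6%, 20.8% and 23.1% in PM and 15.5%, 18.0% and 21.3% in PM-OVA. The groups overlapped in both comparisons, and window 2 was lower by 2.69 points in PM-OVA (limma adjusted p = 0.00556). In Sham-OVA the difference was -1.94 points (adjusted p = 0.06, 0.0402 fitted on only the groups compared, and -1.76 points with 0.109 without Sham replicate 1), and with libraries centred the adjusted p in PM was 0.0688. The last pair of windows, 15 and 16, differed by -0.105 to 0.923 points and was not called in either comparison, also without Sham replicate 1 (0.420 and 0.349 points in Sham). Windows 14 to 16 are also overlapped by the transcript D330041H03Rik.

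**Figure D3:**
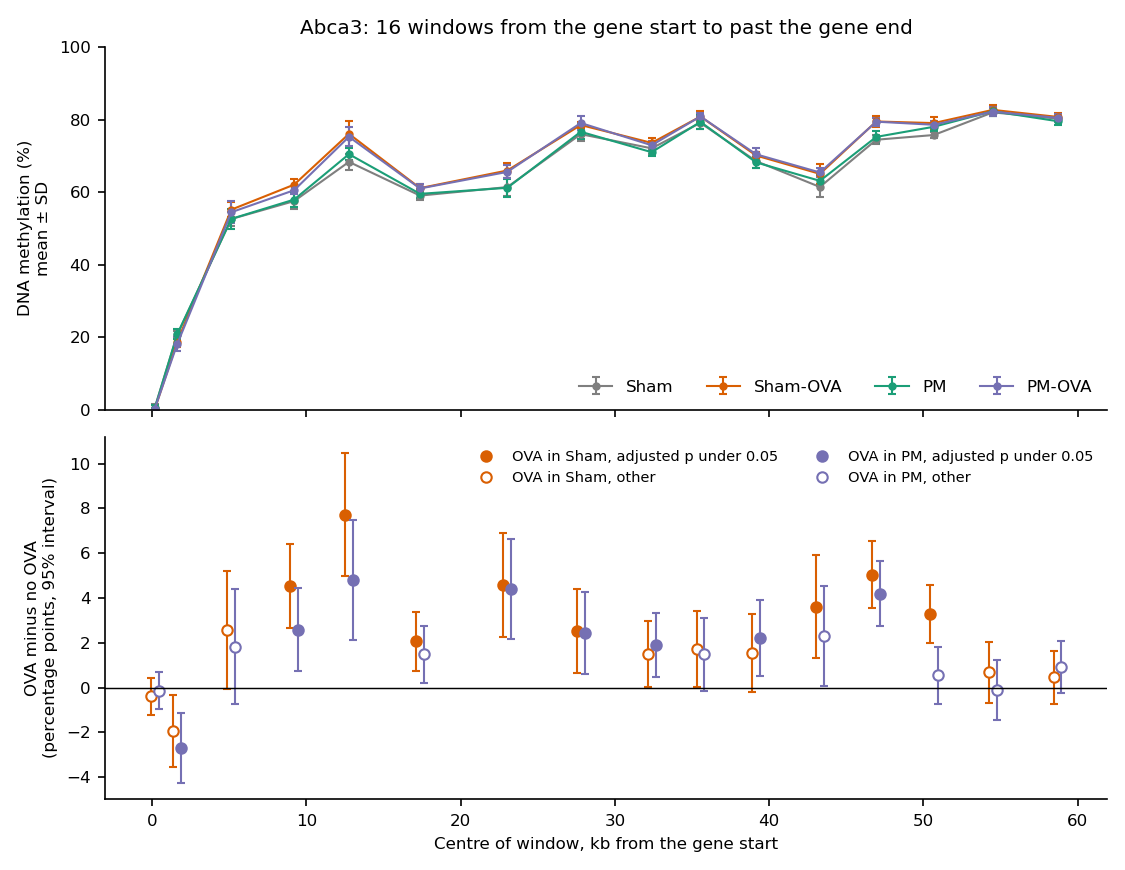
Upper panel, percentage DNA methylation of the 16 Abca3 windows (mean ± SD per group) against the distance of the window centre from the gene start in kb. Lower panel, OVA minus no OVA in percentage points with 95% intervals, filled where the adjusted p was under 0.05. In Sham, methylation is 0.510% in the start window, 20.6% in window 2 and between 52.6% and 82.0%, with no steady order, in windows 3 to 16, and the differences are above 0 in windows 3 to 14 in both comparisons.

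Sftpb and Sftpc encode the hydrophobic proteins that spread and hold the lipid film. The Sftpb start window covers the upstream bases shown above and 850 bp of exon. Its lowest, median and highest levels were 52.2%, 55.1% and 60.2% in Sham and 55.2%, 59.0% and 63.6% in Sham-OVA. In PM they were 53.9%, 55.6% and 59.8%, and in PM-OVA 55.4%, 57.8% and 60.3%. Groups overlapped in both comparisons. The difference in Sham was 3.56 points (95% interval 1.15 to 5.97, limma adjusted p = 0.0242). It did not pass without Sham replicate 1 (2.99 points, adjusted p = 0.0633), without Sham replicate 3 (0.0538) or without Sham-OVA replicate 4 (0.0688), nor fitted on only the groups compared (0.0609). In PM the difference was 1.49 points (-0.842 to 3.83, adjusted p = 0.322).

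Sftpb window 3, which runs over the end of the gene (chr6:72312213-72317709), was at 74.2%, 77.1% and 79.2% in Sham and 74.6%, 80.5% and 83.5% in Sham-OVA (lowest, median, highest). It was at 75.7%, 78.2% and 80.7% in PM and 78.7%, 80.2% and 81.3% in PM-OVA. It was higher by 2.70 points in Sham-OVA (limma adjusted p = 0.0371), with overlapping groups. The call was lost without Sham replicates 1, 3, 4 or 7 or Sham-OVA replicates 1, 4, 5 or 6 (0.0519 to 0.101, with 0.0613 for Sham replicate 1), and on fitting only the groups compared (0.096). In PM-OVA the difference was 2.23 points (adjusted p = 0.0748). Window 2, between them, differed by -1.10 points in Sham (-1.41 without Sham replicate 1) and -1.97 in PM, and was not called.

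Neither window of Sftpc was called. The start window was at 67.8%, 72.9% and 75.5% in Sham, 70.5%, 72.6% and 75.1% in Sham-OVA, 69.3%, 72.3% and 77.5% in PM and 67.7%, 70.4% and 74.0% in PM-OVA (lowest, median, highest). Its differences were 0.364 points in Sham (95% interval -2.07 to 2.80) and -1.40 points in PM (-3.76 to 0.957), and the former was -0.346 points without Sham replicate 1. Window 2 (chr14:70520600-70522478), denser in CpGs at 26.6 per kb, was the least methylated surfactant window outside the first part of Abca3, with 44.9% ± 2.72 in Sham (SD, n = 7). It differed by 1.54 points in Sham (adjusted p = 0.306, and 1.13 points without Sham replicate 1) and by 2.33 points in PM (limma adjusted p = 0.0911).

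Of the collectin genes, Sftpa1 was not called and Sftpd had windows called lower in PM, as were 34.8% of all windows. The Sftpa1 window was at 70.2%, 74.1% and 74.9% in Sham, 69.4%, 76.2% and 79.0% in Sham-OVA, 71.0%, 72.7% and 77.2% in PM and 68.2%, 73.7% and 75.1% in PM-OVA (lowest, median, highest). It differed by 1.76 points in Sham (95% interval -0.654 to 4.17, limma adjusted p = 0.229, and 1.90 points without Sham replicate 1) and by -0.268 points in PM (-2.60 to 2.07, 0.873). All 3 windows of Sftpd were lower in PM-OVA, and 2 of them, the start window and window 3, were called. The median difference of all windows in PM was -1.03 points. Sftpd window 2 differed by -0.843 points in PM (limma adjusted p = 0.467). In Sham it differed by 0.0158 points (0.968, and 0.294 points without Sham replicate 1). The interaction test called none of the 3. The Sftpd start window, which the transcript Gm47114 also overlaps, was at 79.6%, 80.2% and 81.7% in PM and 76.2%, 77.9% and 80.3% in PM-OVA. It fell by 2.38 points (95% interval -3.84 to -0.922, adjusted p = 0.00919), with overlapping groups, and with libraries centred the difference was -1.40 points (adjusted p = 0.125). In Sham the start window was at 77.2%, 80.1% and 81.1%, and in Sham-OVA at 76.0%, 78.8% and 81.4%, a difference of -1.05 points (adjusted p = 0.292, and -1.45 points with 0.141 without Sham replicate 1).

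Sftpd window 3, at the end of the gene (chr14:41166164-41175841), was at 66.9%, 69.0% and 70.6% in PM and 65.0%, 65.8% and 66.9% in PM-OVA. The highest PM-OVA library lay just above the lowest PM library. The window fell by 3.00 points (95% interval -4.71 to -1.28, limma adjusted p = 0.00715, and 0.0494 with libraries centred). In Sham it was at 65.0%, 68.3% and 71.4% and in Sham-OVA at 62.5%, 67.3% and 68.3%, a difference of -1.76 points (adjusted p = 0.134, and -2.29 points with 0.0508 without Sham replicate 1).

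**Figure D4:**
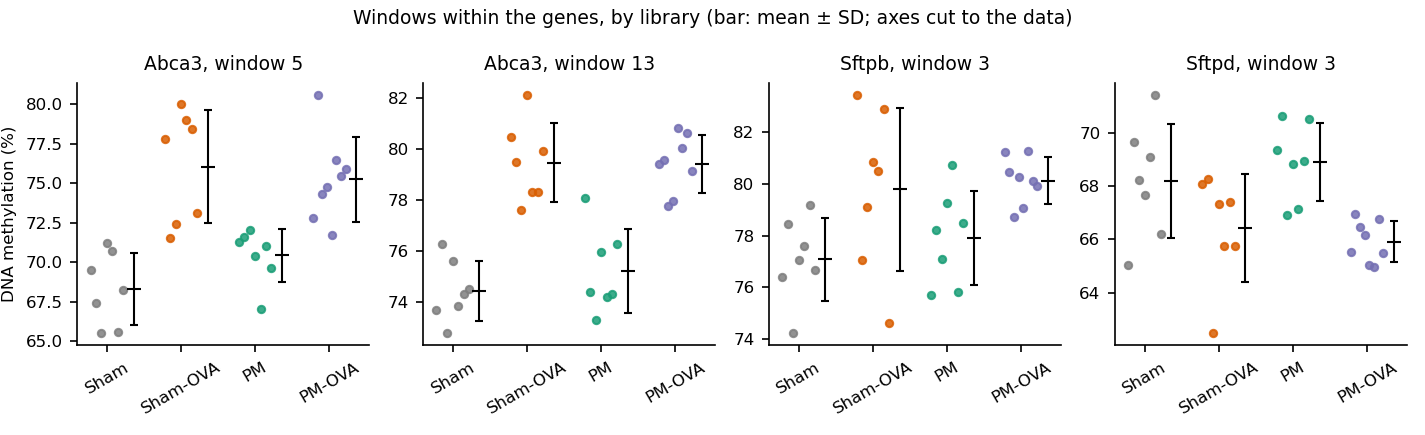
Percentage DNA methylation (vertical axes, cut to the data) of 4 windows within the surfactant genes in every library, by group, with mean ± SD beside the points. Abca3 windows 5 and 13 are higher in both OVA groups, without overlap in Sham, whereas Sftpd window 3 is lower in PM-OVA, where levels are 65.0% to 66.9%.

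Lamp3 had no called window among its 6. Its levels in Sham ran from 71.9% ± 1.94 in window 4 to 91.1% ± 1.26 in window 6, which lies over the gene end (SD, n = 7). The OVA differences were -2.005 to 0.938 points in Sham and -2.23 to 0.711 points in PM, and the lowest of each was window 2 (limma adjusted p = 0.153 and 0.0895). In PM window 2 was called lower on fitting only the groups compared (adjusted p = 0.0454). The start window, with no CpG in the bases shown above, differed by 0.483 points in Sham (95% interval -1.09 to 2.05) and 0.504 points in PM (-1.01 to 2.02). The direction in Sham turned without Sham replicate 1, to -0.168 points, and the 6 Lamp3 differences in Sham ran from -2.55 to 0.918 points with none called.

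Maternal PM exposure was compared at each OVA state, to ask whether the developmental exposure alone or together with AAD moved these genes. None of the 31 windows was called for PM against Sham, for PM-OVA against Sham-OVA, or for the interaction (limma), and 0% of all windows were called in each of the 3 tests. At an unadjusted p under 0.05 there was 1 surfactant window for PM against Sham, 0 for PM-OVA against Sham-OVA and 1 for the interaction, against 5.79%, 5.96% and 7.4% of all windows. Both surfactant windows were Abca3 window 14, chosen here after its values were seen. Its lowest, median and highest levels were 74.6%, 75.9% and 77.0% in Sham, 76.6%, 78.8% and 81.0% in Sham-OVA, 76.3%, 77.7% and 79.4% in PM and 77.1%, 78.7% and 80.004% in PM-OVA. PM exceeded Sham by 2.27 points (limma adjusted p = 0.805), and the interaction was -2.74 points (adjusted p = 0.576). Over the 31 windows the PM differences were -1.71 to 2.27 points without OVA and -2.20 to 1.75 points with OVA. Without Sham replicate 1, no surfactant window was called for PM against Sham or the interaction, the PM differences without OVA ran from -1.65 to 2.32 points, and window 14 of Abca3 was 2.2996 points higher in PM.

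Other genes of the alveolar type II cell and of surfactant metabolism had start windows called in both directions after OVA. The list held 25 genes with a window, and each was represented by the window that holds its start or lies nearest to it. There, 11 of the 25 start windows were called in Sham (7 higher, 4 lower) and 9 in PM (5 higher, 4 lower), against 28.7% and 37.8% of the start windows of all genes. Their median difference was 0.275 points for OVA in Sham and -0.0631 points for OVA in PM, against -0.348 and -0.890 points over the start windows of all genes. The Sham count was 8 of 25 (5 higher, 3 lower) without Sham replicate 1, with 26% of all start windows called, and the median difference was 0.0565 points. The largest start-window difference was at Csf2rb. It encodes the common beta chain of the receptor for the cytokine GM-CSF, and leucocytes also use it. In Sham it fell by 12.6 points (limma adjusted p = 3.83e-07) and in PM it fell by 11.2 points (8.52e-07). Napsa, the aspartic protease that processes pro-SP-B and pro-SP-C, fell by 4.11 points in Sham and fell by 6.88 points in PM (adjusted p = 0.027 and 0.000286). Lyz2, a lysozyme shared by type II cells and macrophages, fell by 5.61 points in Sham and fell by 3.65 points in PM (adjusted p = 0.00197 and 0.0285). Adgrf5, an adhesion receptor that restrains surfactant release, rose by 4.69 and 4.42 points (adjusted p = 0.0325 and 0.0219). Lrrk2, a kinase of lamellar body biology, rose by 3.95 and 3.31 points (adjusted p = 0.000134 and 0.000418). Nkx2-1, the transcription factor that drives most surfactant genes, had a sparsely methylated start window (1.55% in Sham) that rose by 1.92 and 1.10 points (adjusted p = 0.000138 and 0.00627). Without Sham replicate 1 the Sham call of Adgrf5 was lost (4.37 points, limma adjusted p = 0.0613), and those of Csf2rb (-13.3 points), Napsa (-4.11), Lyz2 (-5.56), Lrrk2 (4.03) and Nkx2-1 (1.93) were kept.

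Markers of other lung cells had calls with OVA as well, at airway start windows less often than over all start windows. Their counts stand against 28.7% of all start windows called in Sham (9.66% higher, 19% lower) and 37.8% in PM (6.74% higher, 31.1% lower), and against the shares of all windows given above. The start windows of 14 leucocyte genes averaged 71.2% to 73.5% over Sham libraries and 66.5% to 67.9% over Sham-OVA libraries, and 72.3% to 73.6% over PM and 65.7% to 68.1% over PM-OVA libraries. Of the 14, 8 were called lower in Sham and 11 in PM, and no start window was called higher. Over all 85 windows of these genes 18 were called higher and 24 lower in Sham, and 15 and 30 in PM. The start windows of 7 alveolar type I genes averaged 29.4% to 30.96% in Sham and 32.7% to 35.1% in Sham-OVA, and 29.5% to 31.9% in PM and 31.8% to 33.4% in PM-OVA, with 4 of 7 called higher in each comparison. Over all 64 windows of the type I genes 20 were called higher and 6 lower in Sham, and 15 and 9 in PM. Those of 8 mesenchymal genes averaged 28.1% to 29.6% in Sham and 31.01% to 34.7% in Sham-OVA, and 27.9% to 31.4% in PM and 31.7% to 34.1% in PM-OVA, with 6 of 8 called higher in each. Over all 70 windows of the mesenchymal genes the calls ran the other way, 16 higher and 22 lower in Sham and 11 and 27 in PM. For 8 endothelial genes 4 start windows were called higher and 2 lower in each comparison. Over all 125 windows of the endothelial genes 40 were called higher and 21 lower in Sham, and 36 and 42 in PM. For 7 airway genes 0 start windows were called higher, and 1 was lower in Sham (14.3%) and 2 in PM (28.6%). Over all 21 windows of the airway genes 3 were called higher and 8 lower in Sham, and 1 and 9 in PM. Without Sham replicate 1 each of these 5 lists had as many start windows called in each direction in Sham, and over all windows the higher and lower calls in Sham were 17 and 24 for leucocyte, 20 and 6 for type I, 16 and 21 for mesenchymal, 38 and 22 for endothelial and 2 and 6 for airway genes. The start windows of the 6 surfactant genes averaged 58.3% to 62.0% in Sham and 60.1% to 62.9% in Sham-OVA, and 59.8% to 61.6% in PM and 59.1% to 61.9% in PM-OVA, so their groups overlapped, also without Sham replicate 1 (59.5% to 62.0% in Sham). The part of these cell type shifts in the surfactant gene differences was not tested.

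**Figure D5:**
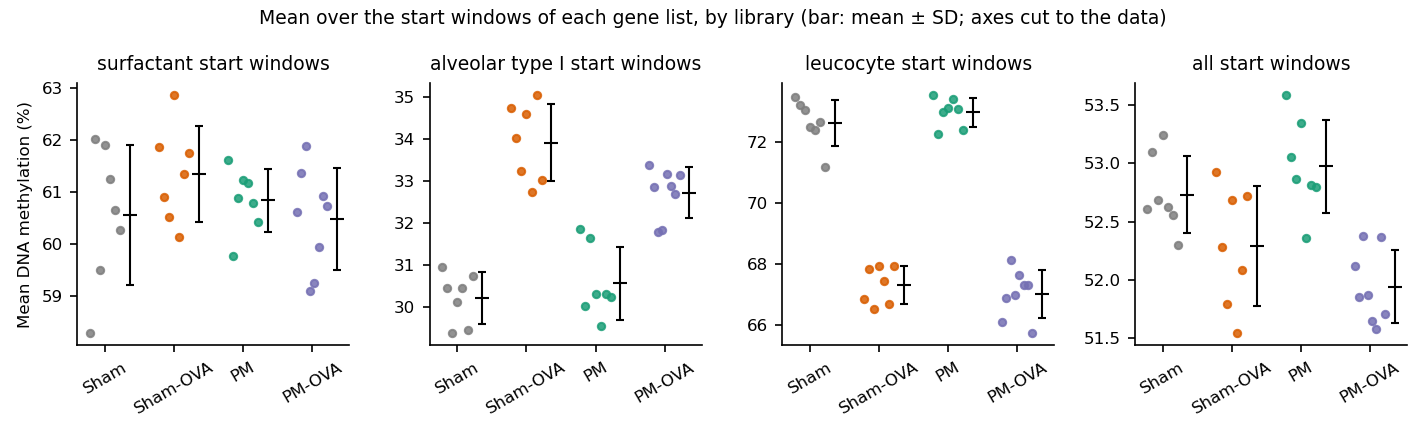
Mean percentage DNA methylation over the start windows of the surfactant, alveolar type I and leucocyte genes and of all genes (vertical axes, cut to the data) in every library, by group, with mean ± SD beside the points. Leucocyte start windows are lower in every OVA library (65.7% to 68.1%) than in any library without OVA (71.2% to 73.6%), while the surfactant start windows overlap throughout.

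With group means subtracted, Pearson's r over the 29 libraries between pairs of start windows ran from -0.0957 (Sftpb and Sftpd) to 0.417 (Sftpb and Lamp3). Over the other 308 pairs of windows from different surfactant genes it ran from -0.421 to 0.611, the highest between Sftpd window 2 and Lamp3 window 3, with a median of 0.171. Across the 120 pairs of Abca3 windows it ran from -0.478 to 0.610. For the Sftpc start window, the windows of other genes with the highest r lay in Sema3f (0.787), Slit3 (0.759), Bfsp1 (0.751), Gm39094 (0.741) and Gphn (0.738). None of these 5 windows holds its gene's start. The values are descriptions over shared libraries, picked as the highest of all complete windows, and carry no test.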

How the data were processed

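Genomic DNA of 29 right-lung samples was converted with NEBNext Enzymatic Methyl-seq, which reads 5-methylcytosine and 5-hydroxymethylcytosine alike, with an unmethylated lambda spike-in. Trim Galore, DRAGEN and GRCm38 are named in the submitters' processing notes. The authors binned cytosines into windows with a fixed number of CpGs in SeqMonk, required a minimum of informative positions, kept windows overlapping Ensembl genes and deposited 1 percent methylation value per window and library. Deposited percentages carry no read counts. The study's methods give genome-wide coverage per library, but the depth behind each window is unknown, and the count model the study's methods name could not be used. Balb/c reads were placed on a reference of another strain, and CpG numbers here come from that reference.

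Windows with values in at least 3 libraries of every group were kept (1519 removed). Percentages were transformed as log2((percent + 1)/(101 - percent)) and fitted with limma 3.58.1 in R 4.3.3 over all 4 groups, with no covariate and Benjamini-Hochberg adjustment over 259167 windows (threshold 0.05). Differences are group means in percentage points with 95% intervals from limma on percentages. The DMR size was 10 points. Members were the windows whose Feature was Sftpc, Sftpb, Sftpa1, Sftpd, Abca3 or Lamp3. The text gives every member's start window and largest difference, the 5 pathway genes with the largest start-window difference (Nkx2-1 was added after its values were seen), and the 5 genes whose window correlated most with the Sftpc start window. Members, lists and alternatives were chosen with earlier results of these data known. Gene models were GENCODE M21, promoters RefSeq. The code was tested on simulated data. Alternatives were an offset of 0.1 points, the percent scale, centred libraries, complete windows, only the groups compared, a variance trend, a replicate block, each library left out, a threshold of 1e-06 and a minimum difference of 5 points. A block on the number in the library name was added after the data were seen.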

Additional observations from a re-analysis of the deposited data

Results flagged for a closer look

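Of 124 combinations of surfactant window and group, 7 had a library whose gap to its nearest neighbour was too large a part of the group's range by Dixon's criterion, about as many as the 1 in 20 that chance gives. The Abca3 start window stood at 2.83% in Sham replicate 5 (next 0.5%) and at 2.23% in PM replicate 5 (next 0.125%). Within Abca3, window 3 was at 50.9% in Sham-OVA replicate 3 (next 54.9%), window 11 at 64.9% in PM replicate 3 (next 67.7%) and window 12 at 58.6% in Sham-OVA replicate 7 (next 65.4%). Sftpc window 2 was at 50.3% in Sham replicate 4 (next 45.5%), and Lamp3 window 3 at 79.2% in PM-OVA replicate 1 (next 77.2%). The call of Abca3 window 12 for OVA in Sham held in all 29 fits that left out 1 library.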

How the results depend on the processing

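The number of surfactant windows called ranged from 6 (without Sham replicate 1) to 11 for OVA in Sham and from 6 (without PM-OVA replicate 7) to 12 for OVA in PM when each library was left out. At an adjusted p threshold of 1e-06 the number was 0 in both. Lowering the minimum difference to 5 points gave 2 DMRs for OVA in Sham, Abca3 windows 5 and 13, and 0 for OVA in PM, and in a combination added after the data were seen only window 5 passed without Sham replicate 1 (window 13 was then at 4.91 points). Replicate numbers are shared between groups in the labels, but correlations of same-numbered libraries' deviations were only -0.0705 to 0.13. Between any 2 groups at most 2 of 7 pairs were over 0.1, so pairing was not assumed. As a hint from the data, 9 of 28 libraries, not all, correlated best with their own number. How many would do so by chance was not worked out. With the replicate block 10 windows were called for OVA in Sham and 9 for OVA in PM, without Abca3 window 11. Library names give 10 of the 29 libraries another number or mark than the titles. Among these are PM-OVA replicates 7 and 8, whose names end in Rel1 and Rel2, a mark the labels do not explain. With the replicate block on the numbers in the names, added after the data were seen, 10 and 6 windows were called (correlations -0.0444 to 0.13 over 36 pairs). Centring gave 12 and 15. With centring, Abca3 window 2 and the Sftpd start window were no longer called lower in PM, Abca3 windows 6, 10, 12, 14 and 16, Sftpb window 3 and Sftpc window 2 were called higher in PM, and Abca3 windows 9 and 10 were called higher in Sham. Among start windows, the Sftpb difference in Sham had an adjusted p of 0.0609 in limma with only the groups compared, which also lost Abca3 windows 6 and 12 and Sftpb window 3 in Sham and Abca3 window 11 in PM, and called Abca3 window 2 lower in Sham and, in PM, Lamp3 window 2 lower and Abca3 window 12 and Sftpb window 3 higher. The Sftpa1 difference in Sham passed without Sham-OVA replicate 5 (0.0438). No called difference changed direction under the alternatives run. Depth per window was unknown, and the library preparation or litter of each animal was not used here.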
